A study of Mus musculus with 9 samples.

Results

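The genes of oxidative phosphorylation (OXPHOS) were followed in N2A cells after depletion of the RNA exosome subunit EXOSC3 or the RNA helicase DDX1. They were chosen by symbol, as those that begin with Nduf and a subunit letter and number (complex I), Sdha to Sdhd (complex II), and those that begin with Uqcr (complex III), Cox and a number (complex IV) or Atp5 (complex V), without Ndufa4l2. The rule found 92 of the 24318 genes in each table, of which 36 fall to complex I, 4 to complex II, 8 to complex III, 27 to complex IV and 17 to complex V. The symbols also take in assembly factors of complex IV, such as Cox11 and Cox17, and Ndufa4, which carries a complex I name but is known as a component of complex IV. Genes that the mitochondrial genome encodes are not analysed here, because 0 of the 13 protein-coding ones were found in the tables.

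N2A is a mouse neuroblastoma line. The cells were transfected with individual siRNAs in Lipofectamine 2000, either scramble siRNA (siScramble, labelled as genotype WT), EXOSC3 siRNA (siEXOSC3, labelled EXOSC3 knockdown) or DDX1 siRNA (siDDX1, labelled DDX1 knockdown), and all groups carry the treatment label Untreated, so that no group was free of siRNA. RNA from 3 cultures of each group was depleted of rRNA and sequenced in 9 nondirectional libraries, and reads of genes that overlap on opposite strands are not told apart. The values are FPKM, fragment numbers scaled by the length of the transcript and the depth of the library, given in 2 tables of 6 libraries, each with 1 knockdown and the same 3 scramble libraries.

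Oxidative phosphorylation takes place in the inner mitochondrial membrane. Complex I takes electrons from NADH and complex II from succinate, complex III passes them on to cytochrome c, and complex IV (cytochrome c oxidase) hands them to oxygen. Complexes I, III and IV pump protons, and complex V (ATP synthase) uses the proton gradient to make ATP. Several subunits of complexes IV and V come in isoforms from separate genes, some of which are known from heart, skeletal muscle or lung.

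The check of the targeted genes came first. In siEXOSC3, Exosc3 was at 6.84 ± 0.836 FPKM against 44.1 ± 1.56 FPKM in scramble (SD, n = 3), and in siDDX1, Ddx1 was at 30.5 ± 3.73 against 125.1 ± 5.39 FPKM, both called as decreased by limma (adjusted p = 1.11e-05 and 9.53e-05). Of 11 neuroblastoma markers, 9 had a scramble mean of at least 1 FPKM, with Nefl and Nefm near 0. Of 14 markers of immune, fibroblast, endothelial, glial and epithelial cells, 4 did, the highest Pecam1 at 4.13 FPKM. Among the 9 neuroblastoma markers, Gata3, Stmn2 and Mycn lay below that value, at 2.27, 2.96 and 3.77 FPKM. Read numbers cannot be read from FPKM, and the depth of each library is unknown in absolute terms. From the steps of low genes, the depth relative to scramble replicate 1 lay between 0.827 and 1.20. In bulk RNA, fewer cells and less RNA per cell cannot be told apart.

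The sequences upstream of 4 members are shown here. Cox7a1 and Cox7a2 are alternative isoforms of the same complex IV subunit, of which Cox7a1 increased after EXOSC3 depletion while the groups of Cox7a2 overlapped. Ndufb2 and Ndufc2 are complex I genes that were called after DDX1 depletion. Each line gives the 250 bases before the RefSeq start in GRCm38.p6, in the direction of the gene. Capitals mark a GC box (GGGCGG) or a CCAAT box (CCAAT), searched on both strands, so that a CCAAT box on the other strand reads ATTGG. The windows are chr7:30183921-30184170 on the plus strand for Cox7a1, chr9:79759854-79760103 on the minus strand for Cox7a2, chr6:39592315-39592564 on the plus strand for Ndufb2, and chr7:97399753-97400002 on the plus strand for Ndufc2.
Cox7a1: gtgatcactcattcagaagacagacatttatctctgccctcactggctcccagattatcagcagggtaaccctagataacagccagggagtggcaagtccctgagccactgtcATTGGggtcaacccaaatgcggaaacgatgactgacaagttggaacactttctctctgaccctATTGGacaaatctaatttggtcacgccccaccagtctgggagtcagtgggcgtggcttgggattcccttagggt
Cox7a2: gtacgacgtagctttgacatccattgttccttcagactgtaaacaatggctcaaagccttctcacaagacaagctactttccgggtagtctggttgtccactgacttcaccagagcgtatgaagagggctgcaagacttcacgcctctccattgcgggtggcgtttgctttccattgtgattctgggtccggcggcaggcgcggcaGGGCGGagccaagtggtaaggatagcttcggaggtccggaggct
Ndufb2: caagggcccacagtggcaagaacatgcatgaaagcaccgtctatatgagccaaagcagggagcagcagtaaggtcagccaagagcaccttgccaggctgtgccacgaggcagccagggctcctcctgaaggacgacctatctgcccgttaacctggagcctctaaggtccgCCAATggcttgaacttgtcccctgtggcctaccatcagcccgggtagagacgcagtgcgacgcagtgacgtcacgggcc
Ndufc2: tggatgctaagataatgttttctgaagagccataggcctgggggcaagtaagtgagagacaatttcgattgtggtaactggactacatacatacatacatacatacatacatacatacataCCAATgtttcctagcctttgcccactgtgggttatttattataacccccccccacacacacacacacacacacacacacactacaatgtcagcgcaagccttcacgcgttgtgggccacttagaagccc
The Cox7a1 window holds 2 CCAAT boxes and 0 GC boxes, and the Cox7a2 window 1 GC box and 0 CCAAT boxes. The Ndufb2 and Ndufc2 windows hold 1 CCAAT box each. A RefSeq window was found for 73 of the 92 members. Over these 73, 41.1% held a CCAAT box and 37.0% a GC box, against 34.5% and 32.9% of all 27025 windows. The letters CCGGAAG, bound by ETS factors such as GABP, stood in 19.2% of the members' windows and in 7.05% of all windows. GCATGCG, which is part of the site of nuclear respiratory factor 1, stood in 11.0% and 3.07%, and AGATGGC, bound by YY1, in 4.11% and 4.53%. None of the last 3 motifs was found in the 4 windows shown. A match is a description of letters, and no binding was measured here.

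In scramble cells, the OXPHOS genes ranged over more than 2 orders of magnitude in FPKM, which is a level per transcript length. The median of the 89 members that passed the filter (a mean of at least 1 FPKM over the 6 libraries of a table) was 217.5 FPKM, against 14.14 FPKM over all genes tested. Cox7c, a small structural subunit of complex IV, was the highest, with 2538, 2288 and 2218 FPKM in scramble replicates 1, 2 and 3. The lowest was Atp5s, a factor related to ATP synthase, with 5.32, 4.34 and 5.56 FPKM. Among the genes placed in complex I by their names, the highest was Ndufa4 (873 ± 30.8 FPKM, SD, n = 3), followed by Ndufa3 (566.9 ± 12.8 FPKM). The lowest was Ndufa11 (11.0 ± 0.809 FPKM), a membrane arm subunit. In complex III, the small subunit Uqcrb was the highest (1292 ± 61.9 FPKM) and the core protein Uqcrc2 the lowest (87.4 ± 2.03 FPKM). Within complex V, Atp5b, the catalytic beta subunit, led with 1559 ± 52.5 FPKM. Complex II had the narrowest range, from 93.8 ± 3.44 FPKM for Sdhc to 281.7 ± 1.96 FPKM for Sdhb. The catalytic core of complex I had a median of 80.7 FPKM over 7 genes and its accessory subunits 245.8 FPKM over 29.

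**Figure D1:**
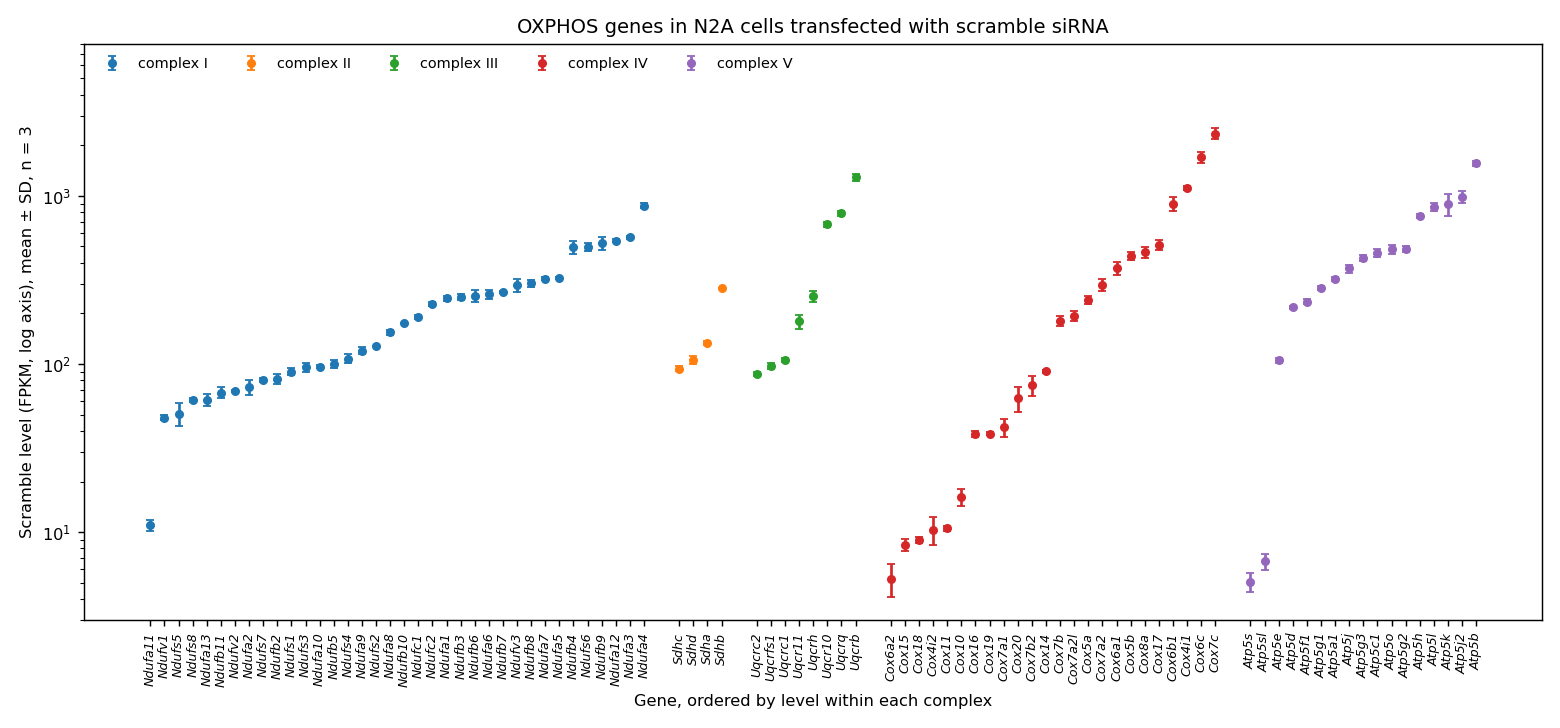
Scramble levels of the 89 OXPHOS genes that passed the filter, in FPKM on a log axis, as the mean (points) and SD (bars) of the 3 scramble libraries in the siEXOSC3 table. Genes are ordered by level within each complex, from Atp5s at 5.07 FPKM to Cox7c at 2348 FPKM, and Ndufa11, Atp5s and Atp5sl lie well below the other genes of their complexes.

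Complex IV held both the highest gene and most of the low ones. Cox6b2, Cox8b and Cox8c were listed at 0 FPKM in all libraries, so the 3 members left out by the filter are alternative isoforms of complex IV. The other alternative isoforms were present beside a more abundant partner. Cox4i2 stood at 10.3 ± 1.94 FPKM (SD, n = 3) against 1115 ± 33.2 FPKM for Cox4i1, Cox6a2 at 5.29 ± 1.20 against 373 ± 34.1 FPKM for Cox6a1, Cox7a1 at 42.0 ± 5.33 against 294.5 ± 23.9 FPKM for Cox7a2, and Cox7b2 at 74.8 ± 9.90 against 180.0 ± 12.6 FPKM for Cox7b. Cox6b1 (896 ± 84.2 FPKM) and Cox8a (461 ± 34.8 FPKM) were the only isoforms of their families with a value above 0. The 3 genes for the c subunit of ATP synthase, Atp5g1, Atp5g2 and Atp5g3, made up 23.7, 40.5 and 35.9% of their summed FPKM. They encode the same mature peptide, and how fragments were divided between them and their processed copies is not given in the sources used here. Their single values are therefore uncertain.

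After EXOSC3 depletion, most OXPHOS genes were not called, and the 2 largest changes were in isoform genes of complex IV. Of the 89 members tested, 12 increased, 4 decreased and 73 were not called at an adjusted p under 0.05. Over all 11242 genes tested, 16.7% were called as increased and 15.7% as decreased, beside 13.5% and 4.49% of the members. The order of the increased shares turned with no filter on low FPKM, at 12.4% of the members and 10.8% of all genes. The median log2 fold change, on the scale of log2(FPKM + 1), was 0.04 over the members and -0.01 over all genes. An unadjusted p under 0.05 was found for 24.7% of the members and for 45.4% of all genes. All 3 siEXOSC3 values lay above all 3 scramble values for 19 members and below them for 9, where the background was 23.8% and 25.9% of all genes.

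The count of 12 increased genes rested in part on single libraries. It was 6 without siEXOSC3 replicate 1, where 10.5% of all genes were called as increased, 5 without scramble replicate 1 (9.10% of all genes), 8 without scramble replicate 2 (11.8%) and 7 without scramble replicate 3 (10.5%). Calls over all genes thus fell in the same settings. Without siEXOSC3 replicate 2 the count was 12 against 21.2% of all genes, and without siEXOSC3 replicate 3 it was 15, or 16.9% of the members against 15.2% of all genes, so that the share of increased members was below the background in each of these settings but the last. The count of 4 decreased genes was 1 without siEXOSC3 replicate 1, 0 without scramble replicate 1 or 2, 2 without scramble replicate 3 and 4 without siEXOSC3 replicate 2 or 3, against 5.17 to 22.3% of all genes called as decreased in these settings. Scaling moved the balance of the calls as well, to 13 increased and 2 decreased where each library was centred on its median (17.9 and 13.5% of all genes), and to 10 and 9 of 88 where a trend on gene length and GC content was removed (16.0 and 19.0% of all genes). The members' shares stayed below those of all genes in both settings. In that last setting the median of the members was -0.04. The members are short genes, with a median exonic length of 1328 bases against 3705 over the genes tested, and the part of length in these values was tested only by this setting.

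**Figure D2:**
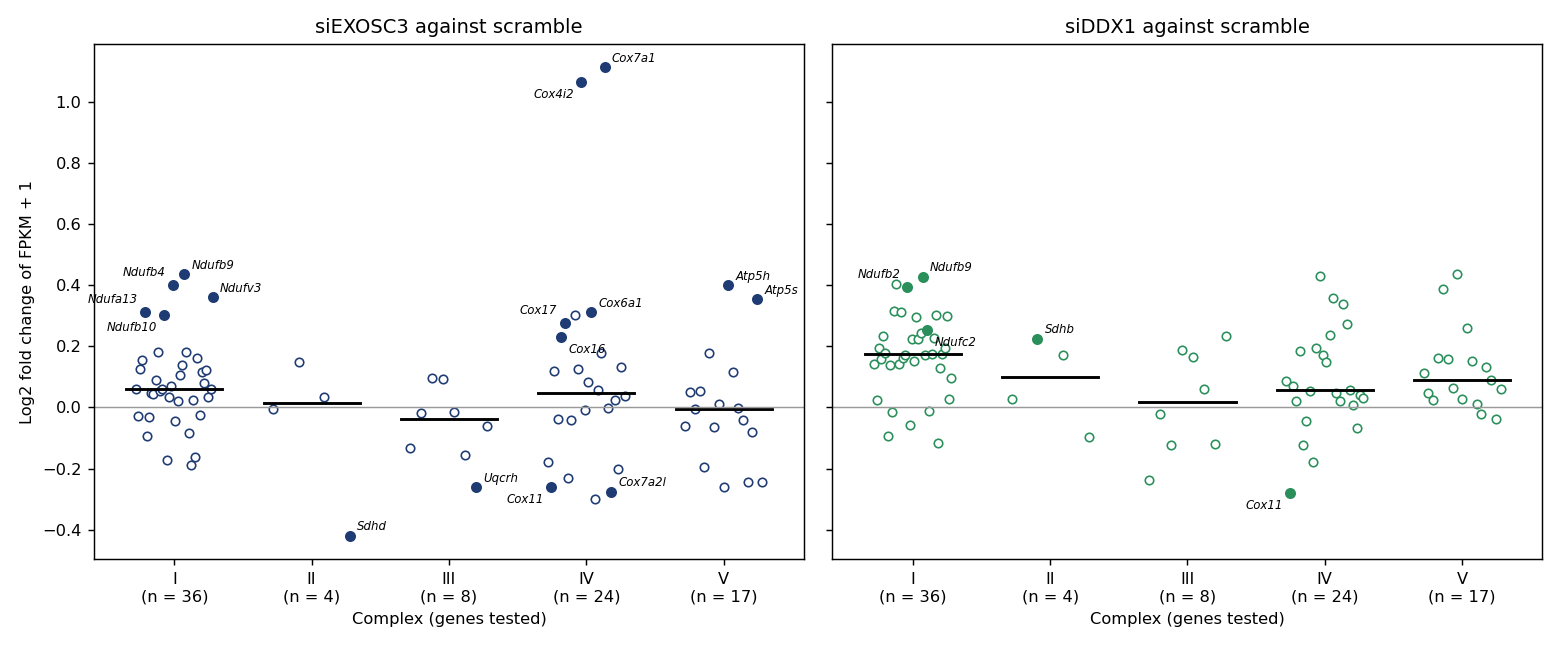
Log2 fold change of FPKM + 1 against scramble for the 89 OXPHOS genes tested, by complex, after EXOSC3 depletion (left) and DDX1 depletion (right). Each point is a gene, filled and named where the adjusted p was under 0.05, and bars are medians by complex. Cox7a1 (1.11) and Cox4i2 (1.07) stand apart in siEXOSC3, and in siDDX1 the complex I genes have a median of 0.18.

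Cox7a1, the isoform of subunit VIIa known from heart and skeletal muscle, had the largest change of all members on the scale of log2(FPKM + 1). It read 36.7, 47.4 and 41.7 FPKM in scramble replicates 1, 2 and 3 and 99.2, 69.1 and 111.5 FPKM in siEXOSC3 replicates 1, 2 and 3. All siEXOSC3 values were above all scramble values, with siEXOSC3 replicate 2 the closest to them. The fold was 2.22, and the log2 fold change 1.11 (SE 0.168, adjusted p = 0.0032). Cox7a2, the more widely expressed isoform, read 316.9, 297.4 and 269.3 FPKM in scramble and 325.3, 313.7 and 247.6 FPKM in siEXOSC3. Its groups overlapped, with a log2 fold change of -0.00 and a 95% interval from -0.26 to 0.26. The share of Cox7a1 in the sum of Cox7a1 and Cox7a2, a measure added after their values had been seen and given with no test, was 10.4, 13.7 and 13.4% in scramble and 23.4, 18.1 and 31.1% in siEXOSC3.

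Cox4i2, the isoform of subunit IV known from lung and from responses to low oxygen, was the next on that scale. It read 8.43, 12.3 and 10.3 FPKM in scramble and 20.1, 18.0 and 31.4 FPKM in siEXOSC3, and siEXOSC3 replicate 3 was the highest. The fold was 2.24, slightly above the 2.22 of Cox7a1, and the log2 fold change was 1.07 (SE 0.200, adjusted p = 0.00678). Cox4i1, the main isoform, read 1113, 1149 and 1083 FPKM in scramble against 1298, 1177 and 1180 FPKM in siEXOSC3 and was not called (log2 fold change 0.13, adjusted p = 0.239). Cox4i2 stayed a small part of the pair, at 0.916 ± 0.155% of the summed FPKM in scramble and 1.87 ± 0.623% in siEXOSC3 (SD, n = 3). Both Cox7a1 and Cox4i2 were called whichever library was left out, and under every alternative at the 0.05 threshold. For the other alternative isoforms the estimates were negative. Cox6a2, a muscle isoform, had a log2 fold change of -0.30 (adjusted p = 0.188) and Cox7b2 one of -0.20 (adjusted p = 0.213), with overlapping groups in both.

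**Figure D3:**
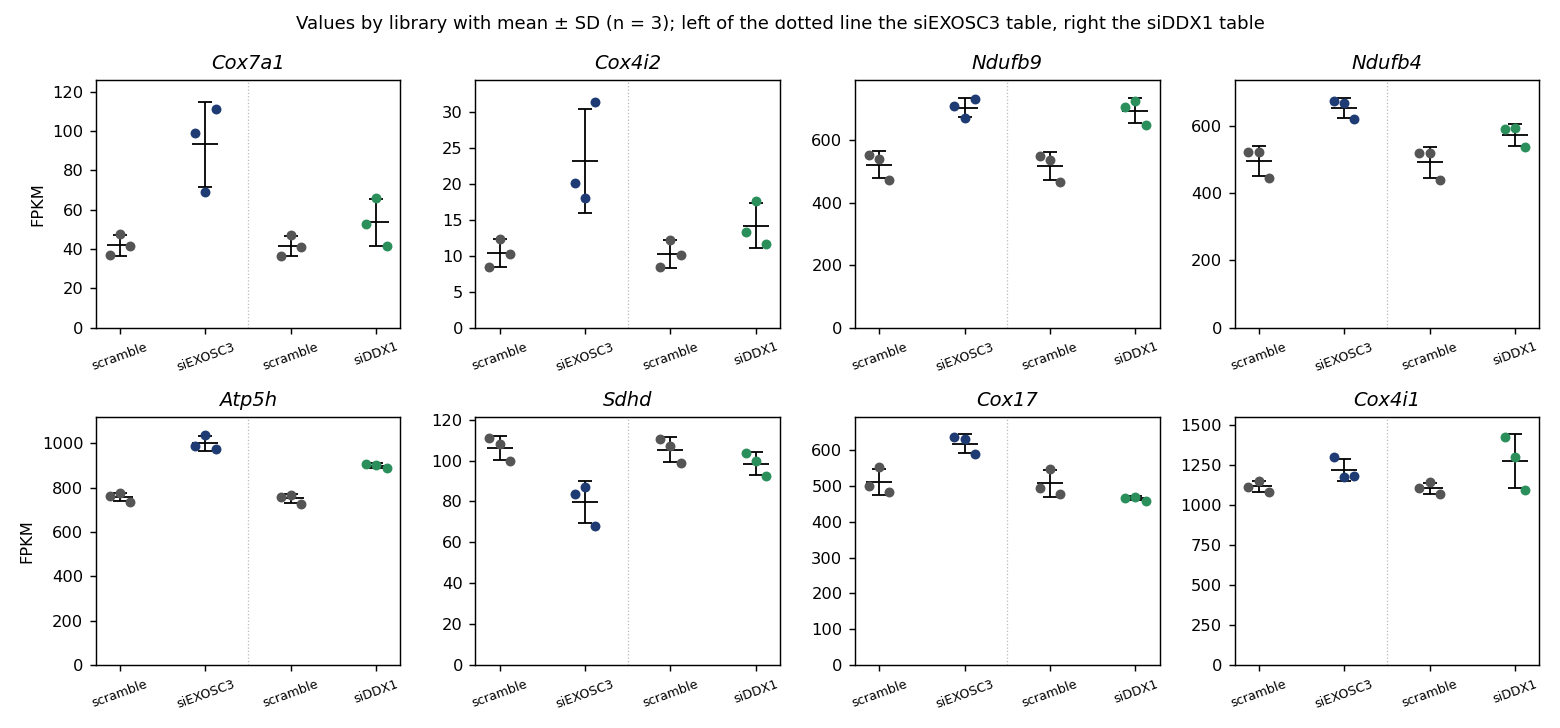
FPKM of 8 OXPHOS genes in each library, with the mean and SD of 3 libraries, the siEXOSC3 table left of the dotted line and the siDDX1 table right of it. Both tables hold the same 3 scramble libraries, scaled separately. The siEXOSC3 values of Cox7a1 (69.1 to 111.5 FPKM) and Cox4i2 (18.0 to 31.4 FPKM) lie above all scramble values, and those of Sdhd (67.8 to 87.0 FPKM) below them.

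Complex I had 5 increased genes, 0 decreased and 31 not called in siEXOSC3, with 27 of 36 estimates above 0 and a median of 0.06. With the length and GC trend removed, 16 of 35 estimates were above 0, the median was -0.03, and 3 genes increased and 1 decreased. The median was 0.14 and 8 genes increased without siEXOSC3 replicate 3, where 15.2% of all genes did. The count was 2 without scramble replicate 1, where 9.10% of all genes increased. In the fit with all libraries, the increased genes were of 1 class. The 5 encode accessory subunits, 17.2% of the 29 tested, which is near the 16.7% of all genes called as increased. With 7 genes in the catalytic core, of which 0 were called, no contrast between the classes is drawn. Ndufb9, of the membrane arm, read 552.8, 540.8 and 471.3 FPKM in scramble and 710.3, 670.8 and 732.3 FPKM in siEXOSC3 (log2 fold change 0.44, SE 0.0843, adjusted p = 0.0075). Ndufb4, also of the membrane arm, read 521.6, 522.2 and 444.2 FPKM against 673.1, 667.4 and 619.5 FPKM (log2 fold change 0.40, adjusted p = 0.011). In both, the groups did not overlap, scramble replicate 3 was the lowest, and the call was kept without any single library. Ndufv3, a small subunit at the NADH-oxidizing tip, rose from 293.7 ± 25.0 to 377.5 ± 31.8 FPKM (SD, n = 3; adjusted p = 0.0192). That call was lost without siEXOSC3 replicate 1 (adjusted p = 0.0702), scramble replicate 1 (0.0863) or scramble replicate 3 (0.0597). Ndufa13 and Ndufb10, named after their values had been seen, rose by 0.31 and 0.30 on the log2 scale (adjusted p = 0.0185 and 0.0211). Ndufa13 overlaps Tssk6 in the annotation and was not called without scramble replicate 1 (adjusted p = 0.0817). Ndufb10 was not called without siEXOSC3 replicate 1 or any 1 of the scramble libraries (adjusted p from 0.0656 to 0.0838), and neither was called with the length and GC trend removed.

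In complex II, which is also an enzyme of the citric acid cycle, Sdhd was the 1 called gene of 4 after EXOSC3 depletion (25.0%, against 32.4% of all genes). This membrane anchor subunit read 111.2, 107.9 and 99.8 FPKM in scramble and 83.8, 87.0 and 67.8 FPKM in siEXOSC3, all below the scramble values. It fell by 0.42 on the log2 scale (SE 0.0993, adjusted p = 0.0152). The adjusted p was 0.0667 without scramble replicate 1 and 0.0528 without scramble replicate 2. The other anchor, Sdhc, had a log2 fold change of 0.04 (adjusted p = 0.741) and the flavoprotein Sdha one of -0.01 (adjusted p = 0.945). The iron-sulfur subunit Sdhb read 326.2, 330.2 and 282.8 FPKM against 281.2, 280.0 and 283.8 FPKM in scramble, so that siEXOSC3 replicates 1 and 2 were high and replicate 3 lay among the scramble values. Sdhb was not called (adjusted p = 0.165), but was without siEXOSC3 replicate 3 (adjusted p = 0.0286).

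In complex III, 1 of 8 genes was called in siEXOSC3, or 12.5% against 32.4% of all genes called in either direction. Of the 8 estimates, 2 were above 0, with a median of -0.04, but 5 were above 0 without siEXOSC3 replicate 3, with a median of 0.05. Uqcrh, the hinge protein next to cytochrome c1, read 266.7, 259.5 and 232.0 FPKM in scramble and 219.9, 206.9 and 204.9 FPKM in siEXOSC3. The groups did not overlap, and Uqcrh fell by 0.26 on the log2 scale (adjusted p = 0.0295). It was not called without siEXOSC3 replicate 1 (adjusted p = 0.0599), scramble replicate 1 (0.129) or scramble replicate 2 (0.0997), and a gene model named Gm12854 overlaps it. Uqcrb and Uqcrc2, the highest and lowest genes of the complex, had log2 fold changes of 0.10 and -0.02 (adjusted p = 0.363 and 0.869). The median of the complex was -0.29 in siEXOSC3 replicate 3 as a deviation from the scramble mean, against 0.06 and -0.01 in replicates 1 and 2.

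Complex IV had 5 increased and 2 decreased genes among 24 tested in siEXOSC3, Cox7a1 and Cox4i2 included, so that 29.2% were called in either direction against 32.4% of all genes. Cox6a1, the main isoform of subunit VIa, read 334.5, 384.2 and 399.8 FPKM in scramble and 485.4, 431.0 and 470.6 FPKM in siEXOSC3 (log2 fold change 0.31, adjusted p = 0.0283). Its estimate was 0.11 with the length and GC trend removed (adjusted p = 0.226), and it was not called with no filter on low FPKM (0.0539) or with quantile normalization (0.0568) either. Nor was it called without siEXOSC3 replicate 1 (adjusted p = 0.101), scramble replicate 1 (0.12) or scramble replicate 2 (0.0637). The other called genes are assembly factors. Cox17, the copper chaperone of complex IV, increased by 0.28 on the log2 scale (adjusted p = 0.0285), and Cox16 by 0.23 (adjusted p = 0.0371). Cox11, which also acts in copper delivery, fell by 0.26 (adjusted p = 0.0443), and Cox7a2l, known for its part in joining complexes III and IV into supercomplexes, fell by 0.28 (adjusted p = 0.0417). Cox16 and Cox17 were named after their values had been seen. All 4 calls were lost without certain single libraries, and most were lost under other processing with all libraries kept. The 7 processing alternatives that use no replicate block were another pseudocount, no filter or a stricter one on low FPKM, quantile normalization, median centring, a fit with no trend of variance on intensity, and the length and GC trend removed. Of these, Cox7a2l was called in 4 (adjusted p from 0.0565 to 0.0706 in the others), Cox11 in 5 (0.0573 and 0.0763), Cox16 in 6 (0.0533 with no intensity trend) and Cox17 in 7. Cox17 was not called without siEXOSC3 replicate 1 (adjusted p = 0.0965), scramble replicate 1 (0.115) or scramble replicate 3 (0.0928). Leaving out any scramble library or siEXOSC3 replicate 1 ended the calls of Cox16, Cox11 and Cox7a2l, with adjusted p from 0.0589 to 0.156. Those of Cox16 and Cox7a2l were also lost without siEXOSC3 replicate 2 (0.0599 and 0.0696), and that of Cox11 without replicate 3 (0.0893). Cox11 overlaps Tom1l1 in the annotation, Cox17 overlaps Popdc2, and Cox16 overlaps several genes.

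In complex V, 2 of 17 genes increased in siEXOSC3, or 11.8% against 16.7% of all genes. Of the 17 estimates, 7 were above 0, and 11 were without siEXOSC3 replicate 3, so no direction is given for the complex. Atp5h, subunit d of the peripheral stalk, read 763.2, 774.2 and 735.6 FPKM in scramble and 986.7, 1039 and 973.8 FPKM in siEXOSC3. The groups were far apart for their spread, with a log2 fold change of 0.40 (SE 0.0710, adjusted p = 0.00568), and the call was kept without any single library. Atp5s rose from 5.07 ± 0.645 to 6.75 ± 0.649 FPKM (SD, n = 3; log2 fold change 0.35, adjusted p = 0.0357). It lost its call without siEXOSC3 replicate 1 or 3 or any 1 of the scramble libraries (adjusted p from 0.0555 to 0.111), and also with no filter on low FPKM (0.0772) or with quantile normalization (0.0527). Atp5b, the catalytic subunit, read 1576, 1601 and 1501 FPKM in scramble and 1638, 1546 and 1656 FPKM in siEXOSC3, with overlapping groups (log2 fold change 0.05, adjusted p = 0.653). None of the 5 genes of the F1 head, the 3 of the c ring or the 3 other membrane subunits was called. Atp5g3 was listed lower in all siEXOSC3 libraries (441.6, 409.3 and 435.7 against 407.6, 396.8 and 282.6 FPKM), but most of the difference lay in siEXOSC3 replicate 3 (adjusted p = 0.162).

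After DDX1 depletion, few OXPHOS genes were called, while most estimates lay above 0. Of 89 members tested, 4 increased, 1 decreased and 84 were not called. Over all 11104 genes tested, 5.61% were called as increased and 5.03% as decreased, which stand beside shares of 4.49% and 1.12% of the members. The median log2 fold change was 0.14 over the members and -0.00 over all genes, and 72 of the 89 estimates were above 0, against 5540 of the 11104 over all genes. The count above 0 was 51 with quantile normalization, 62 of 88 with the length and GC trend removed and 60 without siDDX1 replicate 1. All 3 siDDX1 values lay above all scramble values for 27 members and below them for 3, against 17.0% and 17.8% of all genes. An unadjusted p under 0.05 was found for 33.7% of the members and 30.1% of all genes. Both knockdowns were compared with the same scramble libraries, in tables scaled separately, and the difference between the knockdowns was not tested.

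The number of genes called in siDDX1 moved with each library left out, and most with siDDX1 replicate 3. Without siDDX1 replicate 3, 38 members increased and 1 decreased, and 21 of the increased genes were in complex I. Calls over all genes rose as well, from 623 to 1818 increased and from 559 to 1706 decreased. In that setting 42.7% of the members and 16.4% of all genes were called as increased, against 4.49% and 5.61% with all libraries. Ddx1 itself read 28.05, 28.67 and 34.8 FPKM in siDDX1 replicates 1, 2 and 3, and their depth relative to scramble replicate 1 was 0.975, 1.04 and 1.20. Whether either bears on the calls was not tested. The count of increased genes was 1 without siDDX1 replicate 1, 0 without siDDX1 replicate 2, 0 without scramble replicate 1 or 3, and 1 without scramble replicate 2, in settings where 0.856 to 2.58% of all genes were called as increased. The single decreased gene was not called without siDDX1 replicate 1 or 2 or any 1 of the scramble libraries. The median deviation of the members from the scramble mean was 0.22, 0.13 and 0.01 in siDDX1 replicates 1, 2 and 3, and 0.13, 0.06 and -0.05 in the siEXOSC3 replicates. In scramble replicates 1, 2 and 3 it was 0.02, 0.01 and -0.05. In each group, replicate 3 was thus the lowest for these genes. Over all genes tested these medians lay between -0.02 and 0.01 in every library.

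Scaling also moved the result in siDDX1. With quantile normalization 1 member increased and 6 decreased, or 1.12 and 6.74% of the members against 5.21 and 5.16% of all genes, and the median was 0.04. Centring each library on its median gave 9 increased and 0 decreased, or 10.1 and 0% against 6.73 and 4.12% of all genes, with a median of 0.17. Removing the length and GC trend gave 5 and 2 of 88, against 6.30 and 6.09% of all genes, with a median of 0.06. The siDDX1 median therefore kept its sign in these settings but not its size. With the replicate number fitted as a block, 17 members increased and 1 decreased, or 19.1 and 1.12% against 9.77 and 7.28% of all genes. The share of increased members was thus above that of all genes with the block and below it without.

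**Figure D4:**
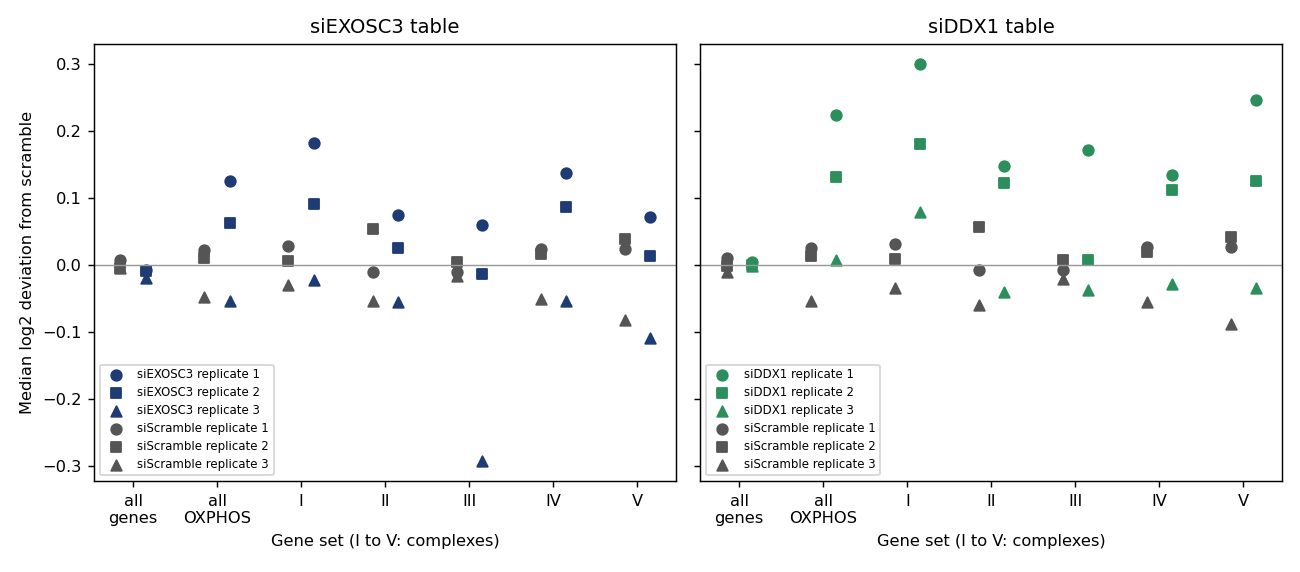
Median deviation of each library from the mean of the scramble libraries, on the log2 scale of FPKM + 1, for all genes tested, all OXPHOS genes and each complex, in the siEXOSC3 table (left) and the siDDX1 table (right). Marker shapes stand for replicates 1, 2 and 3. Replicate 3 (triangles) has the lowest OXPHOS median in each group, and siDDX1 replicate 1 the highest (0.22).

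Complex I had the highest median of the complexes in siDDX1, 0.18, with 31 of 36 estimates above 0. The 3 increased genes made up 8.33% of the complex, beside 5.61% of all genes, and 0 decreased. The count of increased genes was 8 with median centring, 1 with quantile normalization and 13 with the replicate number as a block, where 9.77% of all genes increased. It was 21 without siDDX1 replicate 3 and 0 or 1 without any 1 of the other libraries. The accessory genes had a median of 0.17 over 29 genes and the core genes one of 0.18 over 7. With quantile normalization the median of the complex was 0.12 and 25 estimates were above 0. By library, its median deviation from scramble was 0.30, 0.18 and 0.08 in siDDX1 replicates 1, 2 and 3. Ndufb9 read 707.4, 727.4 and 650.0 FPKM in siDDX1 against 548.4, 536.6 and 465.7 FPKM in scramble (log2 fold change 0.43, SE 0.0908, adjusted p = 0.0252). Ndufb2, another membrane arm subunit, read 111.0, 106.1 and 102.4 FPKM against 81.7, 85.7 and 75.1 FPKM (log2 fold change 0.39, adjusted p = 0.0131). Ndufc2, an accessory subunit of the same arm, read 280.9, 271.2 and 251.7 FPKM against 228.6, 217.1 and 227.8 FPKM (log2 fold change 0.25, adjusted p = 0.0481). All siDDX1 values of these 3 genes lay above all scramble values. Ndufb9 and Ndufc2 lost the call without siDDX1 replicate 1 or 2 or any 1 of the scramble libraries (adjusted p from 0.0657 to 0.151). With all libraries kept, Ndufb9 was called in 4 of the 7 processing alternatives and not with no filter on low FPKM, quantile normalization or the length and GC trend removed (adjusted p from 0.0541 to 0.0723). Ndufc2 was called in 3 of the 7, since no intensity trend ended its call as well (adjusted p from 0.0629 to 0.121 in these 4). Ndufb2 lost it without siDDX1 replicate 2 (adjusted p = 0.0532), scramble replicate 1 (0.0691) or scramble replicate 3 (0.0617). Ndufb2 overlaps Adck2 and Braf in the annotation, and Ndufc2 a gene model named Gm16053. After EXOSC3 depletion, the groups of Ndufb2 and Ndufc2 overlapped, with log2 fold changes of 0.03 and -0.09 (adjusted p = 0.885 and 0.573).

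In complex II, Sdhb was the 1 called gene of 4 in siDDX1, where 10.6% of all genes were called in either direction. It read 326.1, 325.0 and 328.1 FPKM against 278.9, 277.8 and 280.5 FPKM in scramble, with little spread within either group (log2 fold change 0.23, adjusted p = 0.0452). Leaving out any library other than siDDX1 replicate 3 still ended the call (adjusted p from 0.104 to 0.166), and so did 3 of the 7 processing alternatives, quantile normalization among them (0.0545 to 0.141). Sdhd, which fell after EXOSC3 depletion, read 103.5, 99.6 and 92.3 FPKM in siDDX1 and overlapped the scramble values (log2 fold change -0.10, adjusted p = 0.384). The estimates for Sdha and Sdhc were 0.03 and 0.17 (adjusted p = 0.814 and 0.256).

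The other complexes had 1 called gene between them in siDDX1, against the same 10.6% of all genes. Cox11 fell by 0.28 on the log2 scale, from 10.8, 10.3 and 10.2 FPKM in scramble to 8.99, 7.94 and 8.36 FPKM (adjusted p = 0.0488), a call that was lost without siDDX1 replicate 1 or 2 or any 1 of the scramble libraries (adjusted p from 0.0679 to 0.185) and in 3 of the 7 processing alternatives (0.0564 to 0.0789). Complex III had a median of 0.02, with 4 of 8 estimates above 0 and 0 genes called, and its median was -0.04 with quantile normalization. That median was -0.06 without siDDX1 replicate 1 and 0.11 without siDDX1 replicate 3. In the latter setting 3 of its genes increased, where 16.4% of all genes did. The core genes Uqcrc1 and Uqcrc2 had all siDDX1 values above scramble and the small subunit Uqcr10 all below, none of them called (adjusted p from 0.0739 to 0.126). Uqcrc2 was called without siDDX1 replicate 3 (adjusted p = 0.0172).

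The 2 isoforms with the largest change in siEXOSC3 were not called in siDDX1. Cox7a1 read 52.7, 66.1 and 41.7 FPKM in siDDX1 against 36.4, 47.0 and 41.3 FPKM in scramble (log2 fold change 0.34, 95% interval from -0.02 to 0.70, adjusted p = 0.188). Cox4i2 read 13.3, 17.7 and 11.7 FPKM against 8.36, 12.2 and 10.1 FPKM (log2 fold change 0.43, adjusted p = 0.121). The groups overlapped in both, with replicate 3 of siDDX1 the lowest. Without that library both were called (adjusted p = 0.00937 and 0.0184), and so were Cox7a2 (0.00958), Cox4i1 (0.021) and Cox6a1 (0.0298). Cox7a1 made up 13.1 ± 2.57% of the sum of Cox7a1 and Cox7a2 in siDDX1 and 12.5 ± 1.85% in scramble (SD, n = 3). The shares of the 2 groups overlapped.

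In complex V, 15 of 17 estimates were above 0 in siDDX1 and 0 genes were called. That lean was not kept with quantile normalization, where 8 of the 17 were above 0, the median was -0.02 and 2 genes decreased, nor without siDDX1 replicate 1, where 9 of the 17 were above 0. Atp5g2, of the c ring, came closest to the threshold, with 776.3, 631.5 and 554.7 FPKM in siDDX1 against 488.5, 490.7 and 458.2 FPKM in scramble (log2 fold change 0.44, adjusted p = 0.0545). It was called without siDDX1 replicate 3 (adjusted p = 0.00262). Its share of the 3 c subunit genes was 40.7, 41.7 and 38.9% in scramble and 48.3, 47.5 and 45.5% in siDDX1, while that of Atp5g3 was 36.5, 34.5 and 36.6% against 32.5, 31.9 and 30.1%. These shares were added with their values known and are given with no test. Atp5h read 906.0, 902.3 and 886.9 FPKM against 757.2, 768.2 and 727.0 FPKM, with no overlap (log2 fold change 0.26, adjusted p = 0.0611). Atp5b read 1775, 1646 and 1387 FPKM against 1564, 1589 and 1483 FPKM, so that siDDX1 replicates 1 and 2 were above scramble and replicate 3 below it (log2 fold change 0.05, adjusted p = 0.831). Its direction depended on the scaling, since quantile normalization gave a log2 fold change of -0.27 (adjusted p = 0.0165).

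Genes with other roles in mitochondrial energy metabolism were examined as lists. Their counts in siEXOSC3 stand beside a background of 16.7% of all genes increased and 15.7% decreased. In siEXOSC3, the complex I assembly factors had 1 increased and 1 decreased gene of 15 tested (median -0.02), Ndufaf3 with a rise from 5.11 ± 0.804 to 8.10 ± 1.00 FPKM (SD, n = 3; adjusted p = 0.0106) and Ndufaf1 with a fall from 16.7 ± 0.527 to 10.8 ± 1.65 FPKM (adjusted p = 0.00537). The assembly factors of complexes II to V had 4 increased and 4 decreased genes of 26 (median -0.02), shares near the background in both directions. Among the called genes were Coa4, with a log2 fold change of 0.63 (adjusted p = 0.0113), Atpaf1 of the ATP synthase with -0.51 (0.00619) and Sco2, a copper factor of complex IV, with -0.51 (0.00319). Coa4 was not called without scramble replicate 1 (adjusted p = 0.0505). Of 6 other nuclear OXPHOS genes, 1 increased. That was Atpif1, the inhibitor of ATP hydrolysis by complex V, which rose from 100.4 ± 7.84 to 151.4 ± 14.7 FPKM (SD, n = 3; adjusted p = 0.00327) and was called without any single library.

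The regulators of mitochondrial gene expression had a median of -0.13 over 17 genes tested in siEXOSC3, with 2 increased and 3 decreased, against 16.7 and 15.7% of all genes. Polg2, the accessory subunit of the mitochondrial DNA polymerase, rose by 0.59 on the log2 scale (adjusted p = 0.00723). Pprc1, a coactivator, fell by 0.43 (adjusted p = 0.00536) and Nrf1, nuclear respiratory factor 1, fell by 0.47 (adjusted p = 0.0218). Nrf1 was not called without siEXOSC3 replicate 1 (adjusted p = 0.0784), scramble replicate 1 (0.0733) or scramble replicate 3 (0.0864), nor with no filter on low FPKM (0.0552). The pyruvate dehydrogenase and citric acid cycle genes had 0 increased genes and 3 decreased of 18 (median -0.00), the latter near the background. The decreased genes were the pyruvate dehydrogenase components Pdhx, Pdhb and Dld, with log2 fold changes of -0.35, -0.25 and -0.20 (adjusted p = 0.0392, 0.0256 and 0.048). All 3 of these calls were lost without siEXOSC3 replicate 1 or any 1 of the scramble libraries (adjusted p from 0.0528 to 0.153), and those of Pdhx and Dld also without siEXOSC3 replicate 3 (0.075 and 0.0841). With all libraries kept, Pdhx was not called in 2 and Dld in 3 of the 7 processing alternatives (adjusted p from 0.0526 to 0.0803).

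The import and carrier genes had 0 increased and 9 decreased genes of 23 in siEXOSC3, and a median of -0.24, where 16.7% of all genes increased and 15.7% decreased. Tomm20, a receptor of the outer membrane translocase, fell from 78.9 ± 5.49 to 61.0 ± 2.21 FPKM (SD, n = 3; adjusted p = 0.00761). Timm10 and Timm13, chaperones of the intermembrane space, fell by 0.50 and 0.41 on the log2 scale (adjusted p = 0.0245 and 0.0421). Both lost the call when any 1 of the scramble libraries was left out (adjusted p from 0.0528 to 0.143) and with no filter on low FPKM (0.0611 and 0.0912), and Timm13 also with no intensity trend (0.0551). Glycolysis and lactate dehydrogenase genes had the largest share of calls of the lists, with 15 increased and 0 decreased of 16 tested, against the same background, and a median of 0.55. Aldoc, Eno2 and Pfkp, an aldolase, an enolase and a phosphofructokinase, rose by 1.23, 1.17 and 0.79 on the log2 scale (adjusted p = 0.0114, 0.0165 and 0.00659). Aldoc was not called without scramble replicate 1 (adjusted p = 0.0501) or 3 (0.0528), and Eno2 not without siEXOSC3 replicate 1 (0.0573), scramble replicate 1 (0.0591) or scramble replicate 3 (0.0701), nor with no filter on low FPKM (0.052).

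In siDDX1, the same lists had few calls, with 0 to 2 genes in each direction, beside 5.61% of all genes increased and 5.03% decreased. Nothing is read from counts this small about the lists. Of the complex I assembly factors, Ecsit increased (log2 fold change 0.31, adjusted p = 0.0305), and of those of complexes II to V, Lrpprc, which binds mitochondrial mRNA (0.27, adjusted p = 0.034). In the citric acid cycle, Idh2 and Idh3g, isocitrate dehydrogenase genes, increased by 0.40 and 0.37 (adjusted p = 0.0138 and 0.0286), and Dlat of the pyruvate dehydrogenase complex fell by 0.24 (adjusted p = 0.0445). Of the glycolytic genes, 2 of 16 increased, Pfkp by 0.60 (adjusted p = 0.0197) and Hk2, a hexokinase, by 0.59 (adjusted p = 0.0362), and 15 of 16 estimates were above 0 with a median of 0.42. The regulators, the import and carrier genes and the other nuclear OXPHOS genes had 0 calls. In this comparison each of the named list genes lost its call without siDDX1 replicate 2 and without scramble replicates 1 and 3, with adjusted p from 0.0556 to 0.177. The calls of Ecsit, Lrpprc, Idh3g, Dlat, Pfkp and Hk2 were also lost without siDDX1 replicate 1 (adjusted p from 0.0625 to 0.1), and those of Ecsit, Lrpprc, Idh3g and Dlat without scramble replicate 2 (0.0512 to 0.101). With no filter on low FPKM, Idh2 was the only one of these genes still called (adjusted p from 0.0508 to 0.0863 for the others). With no intensity trend Lrpprc, Dlat and Hk2 were not called (0.0501 to 0.065), and with centring Dlat was not (0.0569).

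**Figure D5:**
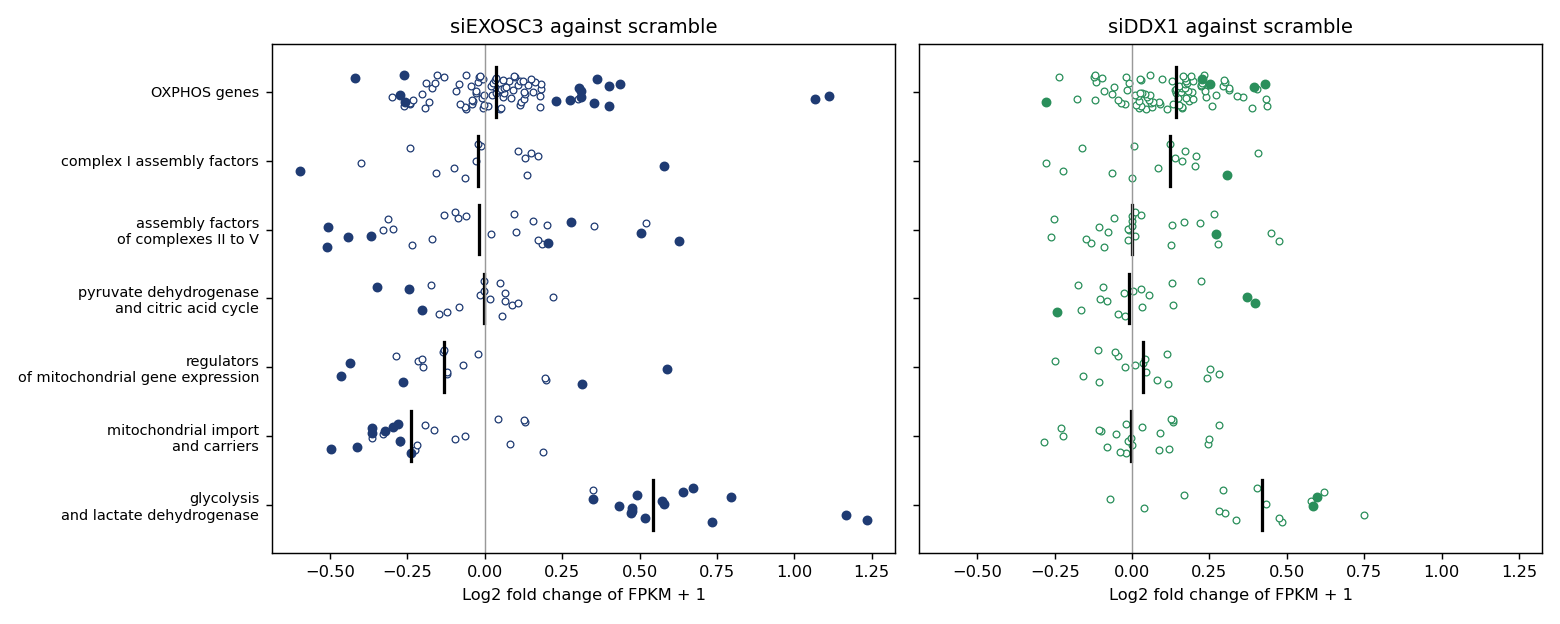
Log2 fold change of FPKM + 1 against scramble for the OXPHOS genes and for 6 lists of genes with related roles, in siEXOSC3 (left) and siDDX1 (right). Each point is a gene, filled where the adjusted p was under 0.05, and bars are medians. In siEXOSC3 the glycolysis list has a median of 0.55 with 15 of 16 genes increased, against 0.04 and 12 of 89 for the OXPHOS genes.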

How the data were processed

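RNA-seq of 9 N2A libraries was analysed, 3 for each of scramble, EXOSC3 and DDX1 siRNA, which the study describes as biological triplicates. P-values measure the spread between these cultures. The authors aligned reads to mm9 with TopHat2 version 2.1.0, used SAMtools and Cuffdiff version 2.2.1, and deposited 2 tables of FPKM, each with 24318 genes. The annotation and scaling given to Cuffdiff are not given in the sources used here. Between the tables, the FPKM of a scramble library differ by a factor of 1.00782 to 1.01188 (medians over genes), so each knockdown was tested within its own table. Relative depth was taken from low genes whose ratio to scramble replicate 1 fell on a common step (18.6 to 22.8% of them). No count model or counting interval was used.

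The test was limma (version 3.58.1, R 4.3.3) on log2(FPKM + 1), with an intensity trend and no covariate, over genes with a mean of at least 1 FPKM, two-sided, with Benjamini-Hochberg adjustment over all of them and a threshold of 0.05. This scale understates the change of low genes. On simulated data with 11242 genes (siEXOSC3) the fit found 200 of 200 genes changed by a log2 fold change of 1 and 56% of those changed by 0.4, and with 11104 genes (siDDX1) 200 of 200 and 57%. False calls numbered 14 and 7 for siEXOSC3 and 14 and 8 for siDDX1. The simulated errors were normal and independent between genes. Shifts shared by many genes of a library were not simulated, so these shares do not give the sensitivity in the real libraries.

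The members, gene lists and tests were chosen with earlier results of these data known. Named were, by complex, up to 3 called genes in each direction, the genes of highest and lowest level, complex II, the isoform families, the targets and up to 3 called genes of each of 8 lists. Of 138 list genes, 123 were found. For 91 of 92 members, GENCODE vM1 on NCBIM37 (mm9) gave overlaps, length and GC content, and upstream sequence from RefSeq. Alternatives were a pseudocount of 0.1, no filter, a mean of at least 5 FPKM, quantile normalization, median centring, no intensity trend, a replicate block, removal of a loess trend (span 0.3) on length and GC content, an adjusted p under 0.01, and leaving out each library. Figures were drawn with matplotlib version 3.10.9.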

Additional observations from a re-analysis of the deposited data

Results flagged for a closer look

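Cox17 was singled out because all siEXOSC3 values lay above all scramble values and all siDDX1 values below them. Of all genes tested, 23.8% lay above in siEXOSC3 and 17.8% below in siDDX1, and how many did both was not counted. Cox17 read 499.5, 552.3 and 483.5 FPKM in scramble and 635.8, 631.1 and 589.5 FPKM in siEXOSC3, with a log2 fold change of 0.28 (limma, adjusted p = 0.0285). That call was lost without siEXOSC3 replicate 1, scramble replicate 1 or scramble replicate 3. In the siDDX1 table it read 495.6, 548.0 and 477.8 FPKM in scramble and 466.0, 470.7 and 459.3 FPKM in siDDX1, with a log2 fold change of -0.12 (adjusted p = 0.315). The difference between the knockdowns was not tested, and both share the scramble libraries. With quantile normalization the siDDX1 value was called (adjusted p = 0.0403).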

How the results depend on the processing

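The median log2 fold changes of the OXPHOS genes moved by less than the spread between libraries under every alternative run. That spread is the SD of the medians of the 3 knockdown libraries, 0.091 in siEXOSC3 and 0.108 in siDDX1. With a library left out, the medians lay between 0.005 and 0.096 in siEXOSC3 and between 0.069 and 0.183 in siDDX1. Quantile normalization took the siDDX1 median from 0.141 to 0.037. Removing the length and GC trend took the siEXOSC3 median from 0.037 to -0.044. The counts moved more. Leaving out each library gave 5 to 15 increased and 0 to 4 decreased members in siEXOSC3, and 0 to 38 and 0 to 1 in siDDX1, and over all genes 1027 to 2379 and 583 to 2508 in siEXOSC3 and 95 to 1818 and 58 to 1706 in siDDX1. Without the filter on low FPKM, 2 members decreased in siEXOSC3 and 0 in siDDX1, where 387 genes in all increased and 330 decreased. An adjusted p under 0.01 left 4 increased and 0 decreased members in siEXOSC3 (869 and 480 of all genes) and 0 and 0 in siDDX1 (100 and 83 of all genes). Median centring left 2 decreased members in siEXOSC3 (1517 of all genes) and gave 9 increased and 0 decreased in siDDX1 (747 and 458). Quantile normalization gave 1 increased and 6 decreased members in siDDX1 (579 and 573). Removing the length and GC trend gave 9 decreased members in siEXOSC3 (2071 of all genes) and 2 in siDDX1 (657). Among the named genes, the 1 change of sign past the threshold was Atp5b in siDDX1, at -0.27 with quantile normalization. The causes were not tested.

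The replicate numbers did not pair the libraries throughout. Deviations of same-numbered libraries from their group means correlated at 0.04, -0.31 and -0.13 in siEXOSC3 and at -0.01, 0.38 and 0.37 in siDDX1. In siDDX1, replicates 2 and 3 correlated best with their own number and replicate 1 did not, and in siEXOSC3 none did. With the replicate number as a block, 8 members increased and 1 decreased in siEXOSC3 (1390 and 1059 of all genes), and 17 and 1 in siDDX1 (1085 and 808 of all genes). In siDDX1 the increased genes were then 19.1% of the members and 9.77% of all genes. Complex I then had 13 increased genes in siDDX1. Under the block 12 of the genes named as called in siEXOSC3 were not called (Ndufv3, Uqcrh, Cox6a1, Cox7a2l, Cox11, Cox16, Cox17, Pdhx, Pdhb, Dld, Nrf1 and Timm13, adjusted p from 0.0518 to 0.0974), and Atp5g2 and Cox4i2 were called in siDDX1 (adjusted p = 0.0197 and 0.0278). The absolute depth is unknown, so no limit from counts can be given, and 3 libraries a group limit the precision of each value.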
